A study of Homo sapiens with 10 samples.

Results

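The 10 genes described here carry the cyclic AMP (cAMP) signal from the membrane to the small GTPase RAP1. They are the adenylyl cyclases ADCY3, ADCY6, ADCY7 and ADCY9, the stimulatory G protein subunit GNAS, the exchange factors RAPGEF3 (EPAC1) and RAPGEF4 (EPAC2), the GTPases RAP1A and RAP1B, and the regulator RGS2. They were taken by symbol from the deposited table of 20379 genes, and all 10 were found. Gene expression was measured by sequencing of poly(A) RNA in 2 established human glioblastoma cell lines, DBTRG-05MG and U87. Each line was sampled at 0, 6, 12, 24 and 48 h of dibutyryl cAMP (dbcAMP), a cell-permeable cAMP analogue, labelled as 1 mM. Each combination of line and time was 1 library, which gives 10 libraries in all. No untreated culture at a later time was analysed here, so dbcAMP and time in culture cannot be told apart. All comparisons with 0 h within a line share that line's single 0 h library.

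In the textbook pathway, a receptor activates the G protein subunit encoded by GNAS, which stimulates adenylyl cyclases to make cAMP from ATP. cAMP then activates protein kinase A and, in parallel, the EPAC proteins, which load RAP1 with GTP. RAP1 in turn regulates integrin adhesion and cell-cell contacts, and RGS2 shortens G protein signalling by speeding GTP hydrolysis. RGS2 is also known as a gene whose transcription cAMP induces in several cell types. A cAMP analogue enters this pathway below the cyclases and the G protein.

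The transcription factor CREB, which protein kinase A activates, binds the cAMP response element TGACGTCA. The promoter sequences of the genes were searched for these letters. RefSeq promoters on GRCh38.p14, each from 250 bases before to 50 bases after a start, were matched for 8 of the 10 genes, with several starts for some. The full element, which reads the same on both strands, was found in the promoter of 1 gene, RAP1B. It was present in 1.98% of 27305 promoters of the same length, taking the first start listed for each gene. Its shorter core, TGACG on one strand or CGTCA on the other, was found in at least 1 promoter of 4 genes, ADCY3, RAP1B, RGS2 and GNAS. With only the first start listed for each gene, it was found in RAP1B and RGS2 and not in ADCY3 or GNAS. On that rule 25.0% of all promoters held the core. Both core matches of RAP1B lie within its full element. The promoters of RAP1B and RGS2, the 2 genes with a match at the first start listed, are printed here. They run from 5′ to 3′ on the gene's strand, with matches in capitals.
RAP1B, chr12:68610649-68610948, plus strand: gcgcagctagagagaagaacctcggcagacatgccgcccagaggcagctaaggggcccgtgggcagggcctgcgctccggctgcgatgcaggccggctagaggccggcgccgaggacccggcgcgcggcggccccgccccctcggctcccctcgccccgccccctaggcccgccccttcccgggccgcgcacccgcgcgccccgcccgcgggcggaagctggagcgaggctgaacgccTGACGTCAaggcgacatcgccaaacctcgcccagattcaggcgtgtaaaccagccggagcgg
RGS2, chr1:192808789-192809088, plus strand: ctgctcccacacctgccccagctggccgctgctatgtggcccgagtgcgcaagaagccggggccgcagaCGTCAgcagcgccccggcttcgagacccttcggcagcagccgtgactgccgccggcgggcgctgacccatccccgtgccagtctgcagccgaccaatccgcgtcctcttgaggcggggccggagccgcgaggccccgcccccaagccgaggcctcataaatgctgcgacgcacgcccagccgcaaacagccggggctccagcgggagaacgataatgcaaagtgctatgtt
The element of RAP1B begins at position -12, counted back from the start, and the core match of RGS2 begins at -181. A match describes the letters in these windows only, and its part in the levels or time courses was not tested.

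Levels are given as FPKM, the fragments of a gene scaled by its length and by the total of the library. The values could be turned back into whole fragments for every gene above 0, which gave library totals of 8871567 to 10366077 fragments. The 95% intervals quoted for single libraries are exact Poisson or binomial intervals on these fragments and cover counting error only. Tests were made with limma on log2(FPKM + 1) for 12352 genes that averaged 1 FPKM or more over all libraries, with Benjamini-Hochberg adjustment over all of them and a threshold of 0.05. This included 9 of the 10 genes, and RAPGEF4, at a mean of 0.892 FPKM, was not tested. RAPGEF3 passed narrowly, at a mean of 1.00 FPKM. Of 12 glioma and astrocyte markers, 7 averaged at least 1 FPKM in DBTRG-05MG and 6 did so in U87. Their summed level was 1324 to 2744 FPKM in DBTRG-05MG, against 5968 to 7534 FPKM in U87, and vimentin (VIM) led it in both lines. The astrocyte filament gene GFAP was nearly absent, at 0.28 FPKM in DBTRG-05MG against 0.15 FPKM in U87, and no fragment of SOX2 or S100B was seen in U87. No gene of the leukocyte, endothelial, oligodendrocyte or epithelial lists reached a mean of 1 FPKM in either line. Of 4 neuron markers, 3 did so in DBTRG-05MG and 2 in U87, with a summed level of 12.3 to 21.8 FPKM in DBTRG-05MG, against 6.49 to 13.5 FPKM in U87. The synaptic gene SNAP25 led them, at 11.4 FPKM in DBTRG-05MG against 7.26 FPKM in U87, and the defining marker RBFOX3 was below 0.2 FPKM in every library. STMN2 stood at 0.880, 0.714, 1.10, 2.06 and 6.00 FPKM in DBTRG-05MG and had no fragment in U87. Its trend in DBTRG-05MG passed narrowly (0.46 ± 0.09, adjusted p = 0.0445), and over the alternatives the adjusted p reached 0.50, without the DBTRG-05MG library at 48 h, in a range that began at 0.003. Of 7 tested glioma and astrocyte markers, all 7 had a negative trend in DBTRG-05MG, with a median of -0.15, and 1 passed as lower. None of them passed in U87. The part of these neuron, glioma and astrocyte markers in the time courses below was not tested. The noncoding RNA BCYRN1 took 0.578 to 3.37% of the summed FPKM in DBTRG-05MG and 7.38 to 13.3% in U87; its part in the differences between the lines was not tested.

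The 2 lines differed in the level of some members of the pathway. RGS2, RAP1B and ADCY6 were higher in DBTRG-05MG, and RAP1A was lower. These are 4 of the 9 tested genes, against 55.0% of all genes tested, so a difference between the lines was not unusual. GNAS, ADCY3, ADCY9, ADCY7 and RAPGEF3 did not pass, with log2 differences from -0.23 to 0.18. The level of all 9 had a median difference of 0.12 on the log2 scale, against 0.18 for all genes tested.

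**Figure D1:**
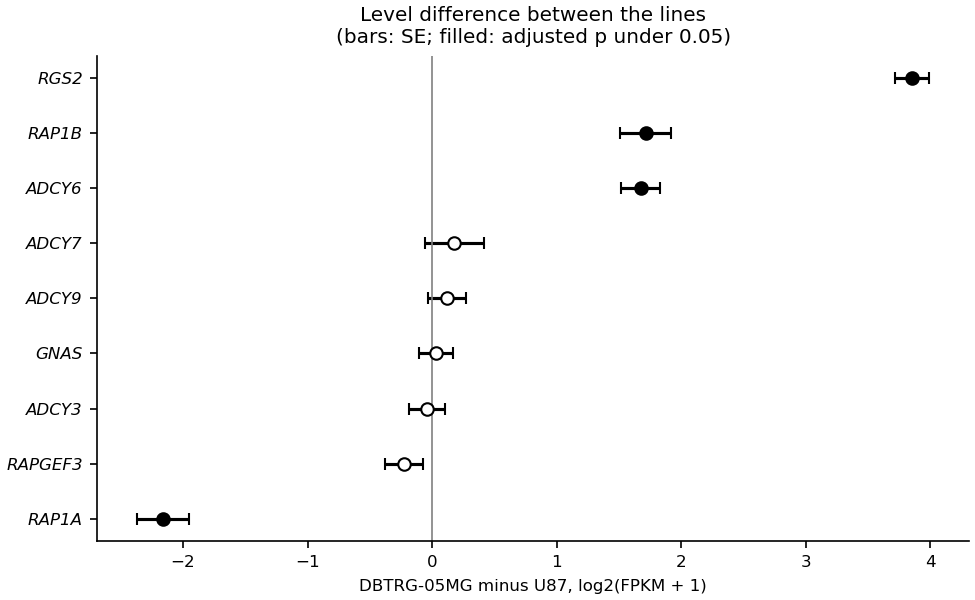
Difference in level between DBTRG-05MG and U87, as log2(FPKM + 1) over 5 times, with its standard error, for the 9 tested genes. RGS2, RAP1B and ADCY6 lie to the right of 0 and RAP1A to the left, and the other 5 genes lie between -0.23 and 0.18.

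RGS2 (chr1:192809039-192812283 on GRCh38) showed the largest of these differences. At 0, 6, 12, 24 and 48 h it stood at 67.2, 140, 106, 109 and 93.5 FPKM in DBTRG-05MG and at 5.05, 8.15, 5.54, 6.86 and 4.98 FPKM in U87. The lowest DBTRG-05MG library was far above the highest U87 library. The difference was 3.85 ± 0.14 on the log2 scale (limma, adjusted p = 5.32e-08, 5 libraries per line), and at matched times DBTRG-05MG had 13.3 to 19.2 times the U87 level. The adjusted p of RGS2 ran from 2.81e-09 to 3.25e-06 over 17 alternative analyses.

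RAP1A and RAP1B, 2 closely related GTPases that share most of their sequence and partners, differed in opposite directions. RAP1B (chr12:68610839-68671901) stood at 197, 202, 260, 292 and 320 FPKM in DBTRG-05MG and at 90.7, 86.3, 75.1, 72.8 and 57.2 FPKM in U87. RAP1A (chr1:111542218-111716691) stood at 4.44, 5.47, 8.50, 8.20 and 7.92 FPKM in DBTRG-05MG and at 37.4, 36.4, 31.7, 24.2 and 40.6 FPKM in U87. For both genes the ranges of the lines did not overlap, as also held for RGS2 and ADCY6. The share of all genes tested with ranges apart was not counted. The difference was 1.71 ± 0.21 for RAP1B (adjusted p = 0.000112) and -2.16 ± 0.21 for RAP1A (adjusted p = 2.33e-05). RAP1A therefore made up 2.20 to 3.16% of the summed FPKM of the pair in DBTRG-05MG and 25.0 to 41.5% in U87. RAP1B was the more abundant of the pair in all 10 libraries. How fragments that match both genes were assigned is not given in the sources used here.

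Of the 4 cyclases followed here, ADCY6 was the one that passed between the lines. ADCY6 (chr12:48766194-48789037), a cyclase that calcium inhibits, stood at 9.41, 8.08, 12.0, 12.1 and 11.9 FPKM in DBTRG-05MG and at 3.11, 1.93, 2.55, 2.21 and 3.55 FPKM in U87. All DBTRG-05MG libraries were above all U87 libraries, and the difference was 1.68 ± 0.16 (adjusted p = 2.08e-05). ADCY6 contributed 31.5 to 41.0% of the summed FPKM of the 4 cyclases in DBTRG-05MG and 10.4 to 16.6% in U87. ADCY3, a cyclase also known from olfactory signalling, was the leading one of these 4 in U87, with 48.9 to 55.2% of the sum. The sum leaves out other cyclases, of which ADCY8 averaged 6.98 FPKM in U87. In DBTRG-05MG the share of ADCY3 in the sum of the 4 was 25.8% at 48 h, against 39.1% at 0 h.

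RAPGEF4 (chr2:172735274-173052893) was seen almost only in DBTRG-05MG. It stood at 2.36, 1.23, 1.26, 1.62 and 2.21 FPKM there, from 99, 53, 59, 71 and 99 fragments. In U87 it had 2, 3, 2, 1 and 4 fragments, or 0.0417, 0.0611, 0.0432, 0.0222 and 0.0823 FPKM. The smallest ratio at a matched time was 20.1 in favour of DBTRG-05MG, at 6 h (95% counting interval 6.52 to 100.6). For RAPGEF3 (chr12:47734367-47771040) the ranges of the lines overlapped. RAPGEF4 made up 61.1 to 73.0% of the summed FPKM of the EPAC pair in DBTRG-05MG and 2.08 to 7.09% in U87. With no filter on low values RAPGEF4 was tested and passed, and RAPGEF3 was lower in DBTRG-05MG at -0.49 ± 0.13 (adjusted p = 0.0132) when the medians of the libraries were set equal.

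**Figure D2:**
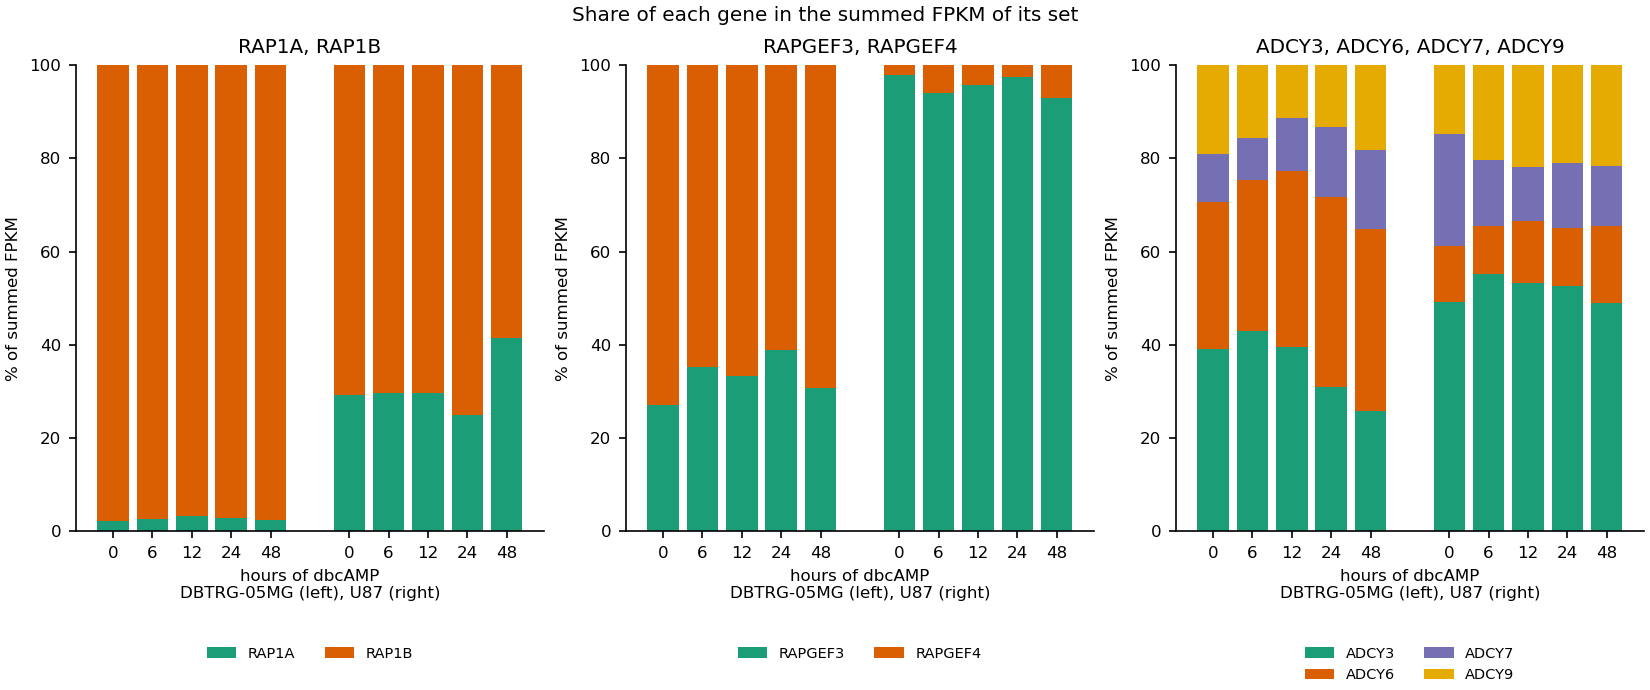
Share of each gene, in percent of the summed FPKM of its set, for RAP1A and RAP1B, for RAPGEF3 and RAPGEF4, and for the 4 cyclases. Each bar is 1 library, with DBTRG-05MG left and U87 right. RAP1A takes 2.20 to 3.16% of its pair in DBTRG-05MG and 25.0 to 41.5% in U87, and RAPGEF4 takes 61.1 to 73.0% and 2.08 to 7.09%.

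Of all 6789 genes that differed between the lines, 4350 were higher and 2439 lower in DBTRG-05MG. This split depended on the scaling, with 3166 higher and 3784 lower when medians were set equal and 5422 higher and 1853 lower with equal totals. RGS2, RAP1B, ADCY6 and RAP1A kept their direction and passed under each of these scalings. The p-values speak of these libraries, since each line was 1 line sampled at 5 times.

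Over the time course none of the 9 tested genes passed the threshold in any comparison. At 6 h against 0 h, with the lines as blocks, 0.00810% of all genes tested passed, which is 1 gene. At 48 h against 0 h, 0% passed, although 1512 genes had an unadjusted p under 0.05, and limma-voom on the fragments also called 0, with 1733 under 0.05. A trend over the order of the times passed for 1.12% of genes in DBTRG-05MG and for 0% in U87, where 1545 genes had an unadjusted p under 0.05 and limma-voom again called 0, with 1535 under 0.05. The trend differed between the lines for 0.0162% of genes, or 2 genes. The design thus called few genes of any kind, and the values that follow describe single libraries. Between libraries of a line, the median of all genes tested was lower than at 0 h by more than 0.1 in 3 cases, at -0.10 in DBTRG-05MG at 6 h and at -0.22 and -0.24 in U87 at 24 and 48 h.

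**Figure D3:**
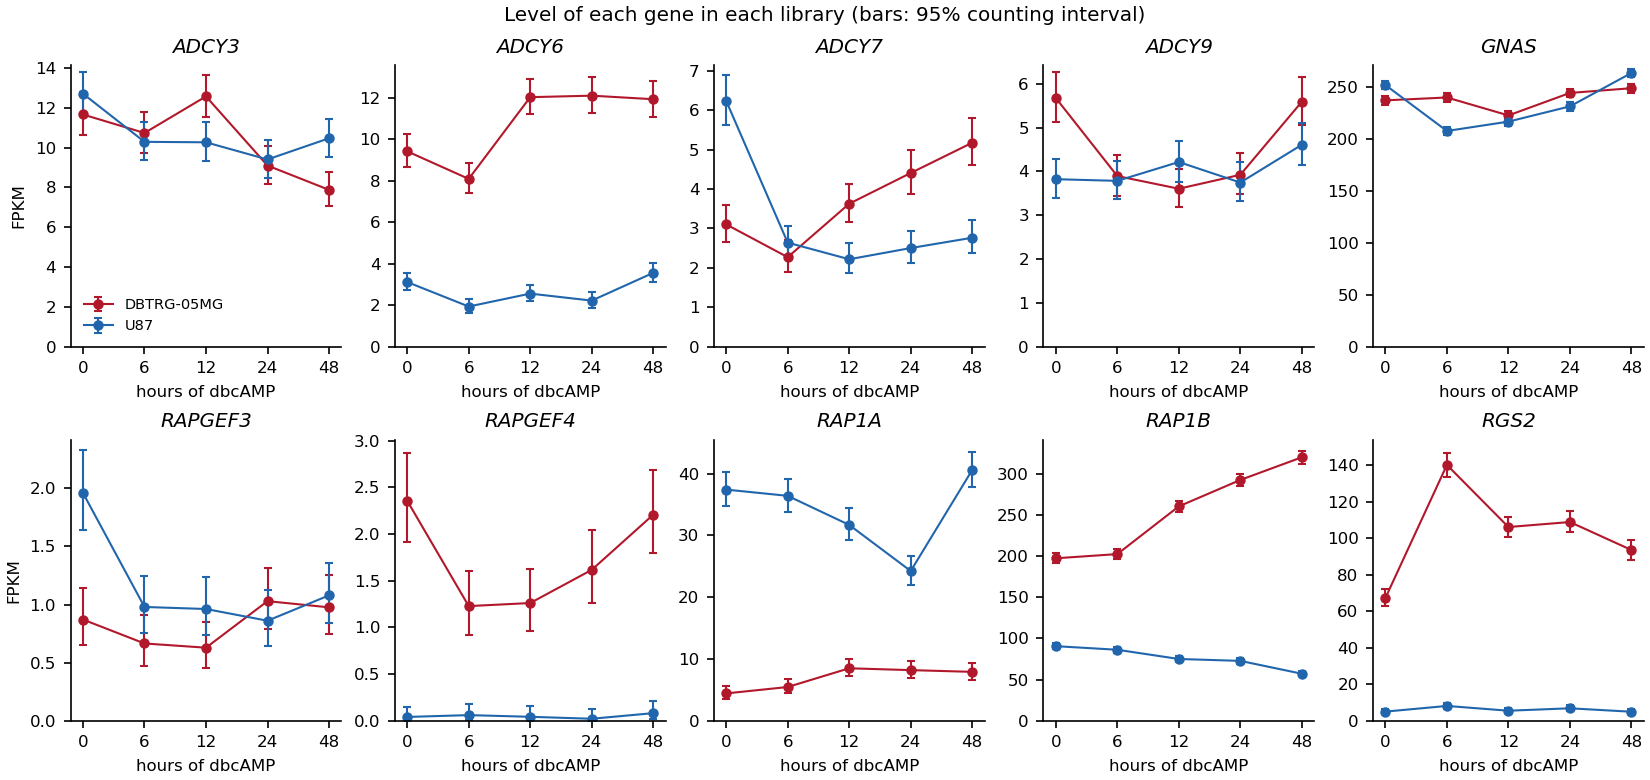
Level of each of the 10 genes in FPKM by hours of dbcAMP (times evenly spaced), with DBTRG-05MG in red and U87 in blue. Each point is 1 library, and bars are 95% counting intervals. RGS2 is highest at 6 h in both lines, though in U87 its interval overlaps those at 12 and 24 h. At 48 h RAP1B is at 320 FPKM in DBTRG-05MG against 57.2 FPKM in U87.

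RGS2 had its highest level at 6 h in both lines. In DBTRG-05MG the 6 h level was 2.08 times that at 0 h (95% counting interval 1.92 to 2.27), and all 4 later libraries were above 0 h, at 1.58, 1.62 and 1.39 times from 12 to 48 h. In U87 the 6 h level was 1.61 times that at 0 h (1.19 to 2.21), and the intervals at 12, 24 and 48 h included 1. The U87 level at 6 h had a counting interval of 6.72 to 9.79 FPKM. It overlapped those at 12 h (4.34 to 6.96) and 24 h (5.50 to 8.45). Over both lines the 6 h difference was 0.82 ± 0.22 on the log2 scale, with an unadjusted p of 0.00444 and an adjusted p of 0.694. Across the alternatives that adjusted p stayed between 0.447 and 1. At 6 h in DBTRG-05MG, RGS2 was among the 1.17% of genes at least 2-fold higher than at 0 h on the log2(FPKM + 1) scale.

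RAP1B as deposited was ordered by time, and in opposite directions in the lines. Its level in DBTRG-05MG was 1.03, 1.32, 1.48 and 1.62 times the 0 h level at 6, 12, 24 and 48 h. In U87 it was 0.952, 0.828, 0.803 and 0.631 times the 0 h level. From 12 h on, the counting intervals excluded 1 in both lines. The trend per time step was 0.19 ± 0.05 in DBTRG-05MG (adjusted p = 0.112) and -0.16 ± 0.05 in U87 (adjusted p = 0.359). The difference of the trends was 0.35 ± 0.07, with an unadjusted p of 0.000797 and an adjusted p of 0.185, which did not pass. With the medians of the libraries set equal, the U87 trend was -0.09. The U87 levels were then at 0.963, 0.858, 0.933 and 0.746 times 0 h. They stayed below 0 h but were no longer ordered by time. The level in DBTRG-05MG was 5.60 times that in U87 at 48 h, against 2.18 times at 0 h.

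RAP1A was also above its 0 h level in all 4 later DBTRG-05MG libraries, at 1.23, 1.92, 1.85 and 1.79 times. These rest on 95 to 160 fragments later and 75 at 0 h, and only the 6 h interval included 1 (0.902 to 1.69). In U87 it was lowest at 24 h, at 0.648 times the 0 h level (0.574 to 0.731), and at 48 h the interval included 1. The trend in DBTRG-05MG was 0.19 ± 0.08 (adjusted p = 0.262), and the difference of the trends was 0.23 ± 0.12 (adjusted p = 0.422).

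ADCY7 (chr16:50246137-50318135), a cyclase best known from blood and immune cells, had the widest spread over time of the 10 genes once each line's mean was removed. It stood at 3.10, 2.27, 3.63, 4.41 and 5.18 FPKM in DBTRG-05MG and at 6.24, 2.64, 2.22, 2.50 and 2.76 FPKM in U87. The 4 later U87 libraries were at 0.355 to 0.443 times the 0 h level, with 133 to 174 fragments later and 388 at 0 h. In DBTRG-05MG the level was 0.732 times that at 0 h at 6 h (0.577 to 0.927) and 1.67 times at 48 h (1.38 to 2.03). At 12 h ADCY7 was among the 2.67% of genes in U87 at least 2-fold lower than at 0 h. The trend in U87 was -0.19 ± 0.10 (adjusted p = 0.433), and without the U87 library at 0 h it was 0.03, so the lower later levels rest on that library. The difference of the trends was 0.38 ± 0.14 (adjusted p = 0.302). The order of the lines turned over time: DBTRG-05MG had 1.87 times the U87 level at 48 h (1.55 to 2.27), against 0.497 times at 0 h (0.413 to 0.597). At 6 h it had 0.860 times the U87 level, with an interval that included 1 (0.678 to 1.09). U87 was thus the higher line beyond counting error only at 0 h.

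RAPGEF3 in U87 had a like course. It stood at 0.871, 0.665, 0.629, 1.03 and 0.976 FPKM in DBTRG-05MG and at 1.96, 0.979, 0.961, 0.861 and 1.08 FPKM in U87. The later U87 libraries were at 0.439 to 0.550 times the 0 h level, from 54 to 73 fragments later and 131 at 0 h, with intervals that excluded 1. In DBTRG-05MG, with 40 to 63 fragments per library, all 4 intervals included 1. RAPGEF4 in DBTRG-05MG was at 0.521, 0.535, 0.686 and 0.937 times its 0 h level, and the interval included 1 at 48 h. In U87 its 1 to 4 fragments allowed no reading of a course.

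ADCY9 (chr16:3953387-4116185), a widely expressed cyclase, followed the same dip and return as RAPGEF4 in DBTRG-05MG. It stood at 5.67, 3.89, 3.60, 3.92 and 5.59 FPKM there, or 0.686, 0.635, 0.691 and 0.985 times its 0 h level. In U87 it stood at 3.82, 3.78, 4.21, 3.74 and 4.61 FPKM, and only the 48 h library was off its 0 h level by more than counting error, at 1.21 times (1.03 to 1.41). ADCY3 (chr2:24819169-24919839) stood at 11.7, 10.7, 12.6, 9.10 and 7.88 FPKM in DBTRG-05MG and at 12.7, 10.3, 10.3, 9.41 and 10.5 FPKM in U87. It was lowest at 48 h in DBTRG-05MG, at 0.675 times the 0 h level (0.584 to 0.780), and all 4 later U87 libraries were at 0.740 to 0.824 times. ADCY6 was at 0.859 times its 0 h level at 6 h in DBTRG-05MG and at 1.27 to 1.29 times from 12 h on. In U87 it was at 0.621 times at 6 h (0.496 to 0.774) and at 1.14 times at 48 h, where the interval included 1.

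GNAS (chr20:58839718-58911192) had the smallest spread of the 10 genes once each line's mean was removed. It stood at 237, 240, 222, 244 and 249 FPKM in DBTRG-05MG and at 252, 207, 216, 231 and 263 FPKM in U87. The lowest and highest libraries differed 1.12-fold in DBTRG-05MG and 1.27-fold in U87, from 11850 to 15220 fragments per library. In U87 it was at 0.824 times its 0 h level at 6 h. At 24 h its direction depended on scaling: it was at 1.03 times in DBTRG-05MG and 0.918 times in U87 as deposited, and at 0.993 and 1.07 times with medians set equal. GNAS is a complex locus with several starts and an antisense transcript, and the gene-level value does not separate them.

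**Figure D4:**
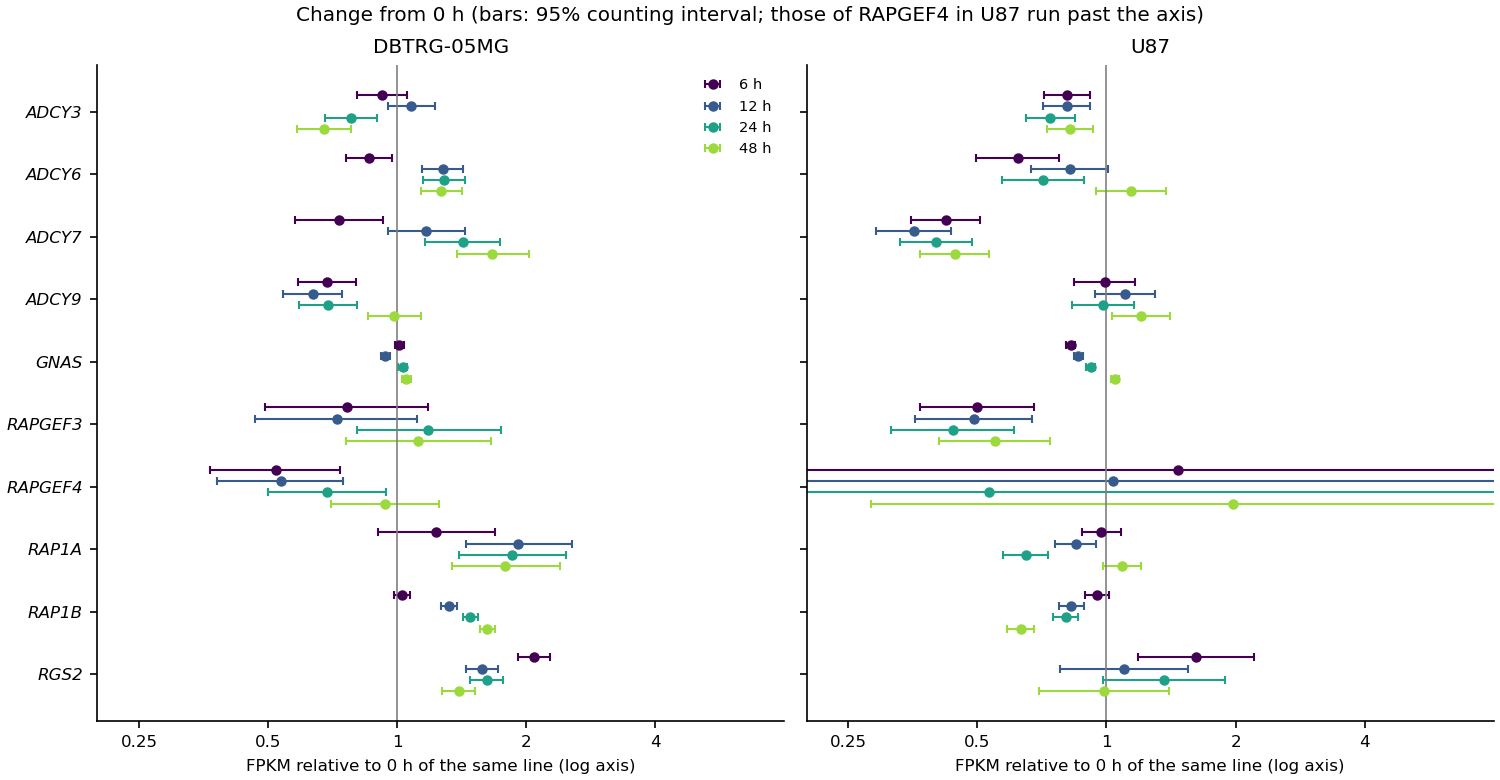
Level relative to 0 h of the same line on a log axis, for 6, 12, 24 and 48 h, with DBTRG-05MG left and U87 right. Bars are 95% counting intervals. RAP1B lies at 1.62 at 48 h in DBTRG-05MG and at 0.631 in U87, and all 4 ADCY7 points of U87 lie between 0.355 and 0.443.

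Of the comparisons of the 9 tested genes with a 0 h library, 50 of 72 lay outside counting error, or 69.4%, against 57.2% over all genes tested. Such an excess over counting error was thus common, and abundant genes reach it at small changes, as GNAS did at 1.03 times. It leaves the variation between cultures unmeasured. In DBTRG-05MG the median log2 change of the 9 tested genes was -0.11, 0.17, 0.33 and 0.31 at 6, 12, 24 and 48 h, against -0.07, 0.00, 0.05 and 0.02 for all genes tested. In U87 it was -0.28, -0.23, -0.35 and -0.01, against -0.01, -0.04, -0.15 and -0.15. Of the 9 genes, 4, 6, 7 and 7 were above 0 h in DBTRG-05MG at the 4 later times, against 4786, 6179, 6718 and 6419 of all 12352 genes tested. In U87, 1, 2, 1 and 4 were above 0 h, against 5820, 5413, 4336 and 4271 of them.

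Some of the genes varied together once each line's mean was removed, over the 10 libraries, which share their line, time and 0 h points. Of all pairs of the 10 genes, Pearson's r was highest for ADCY9 and RAPGEF4, at 0.91, and for ADCY7 and RAPGEF3, at 0.89. It was lowest for RGS2 with ADCY9, at -0.725, and with RAPGEF4, at -0.715. RAPGEF4 had 1 to 4 fragments per library in U87, so its r values rest mainly on the DBTRG-05MG libraries. Among 8406 genes that averaged 5 FPKM or more, the closest to ADCY7 were RAP2B (r = 0.95), GBAS (0.95) and PSME4 (0.92). The closest to RGS2 were HBEGF (0.88), IGF1R (0.88) and PDE8A (0.87), and the closest to RAP1A were SPTSSA (0.98), TCTEX1D2 (0.98) and RPS13 (0.98).

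The wider pathway was read from 11 lists of 112 genes in the table, of which 73 were tested. Between the lines 42 of them differed, or 57.5%, with 23 higher and 19 lower in DBTRG-05MG, which is near the 55.0% of all genes tested.

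**Figure D5:**
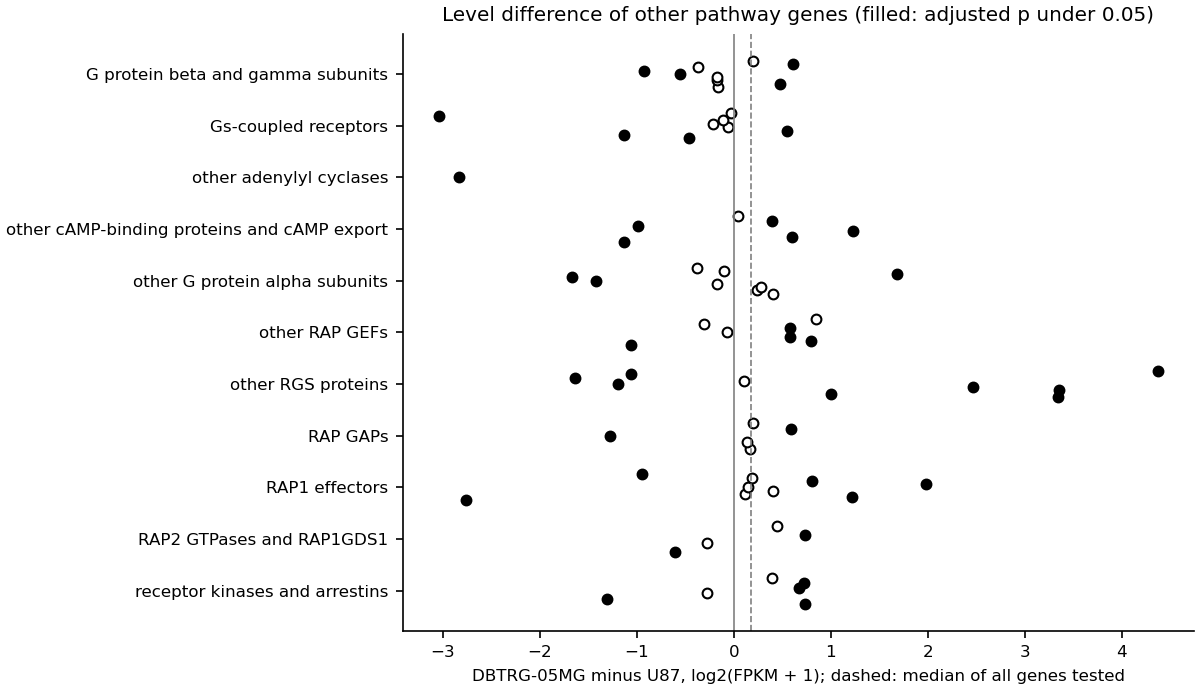
Difference in level between DBTRG-05MG and U87, as log2(FPKM + 1), for the 73 tested genes of 11 pathway lists. Each point is 1 gene, filled where the adjusted p was under 0.05, and the dashed line is the median of all genes tested, 0.18. RGS4 lies farthest right, at 4.37, and PTGER2 farthest left, at -3.04.

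The other RGS proteins, which like RGS2 end G protein signalling, had 5 of 9 tested members higher and 3 lower in DBTRG-05MG, with a median difference of 1.00. RGS4 averaged 21.5 FPKM in DBTRG-05MG, against 0.056 FPKM in U87 (4.37 ± 0.18, adjusted p = 1.09e-07). RGS14 (3.35) and RGS10 (3.34) were also higher in DBTRG-05MG, and RGS20 (-1.64) was lower. RGS16 was the one gene of the lists with a trend that passed, at 0.52 ± 0.08 per step in DBTRG-05MG (adjusted p = 0.0186), where 138 genes in all passed. Its adjusted p ran from 0.00798 to 0.205 over the alternatives. It was 0.0748 with a pseudocount of 0.1, and 0.0575 and 0.205 without the DBTRG-05MG library at 24 or at 48 h. It stood at 2.50, 2.21, 3.75, 8.20 and 11.4 FPKM in DBTRG-05MG and had 0 to 2 fragments per library in U87.

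Upstream of the cyclases, 1 of 8 tested receptors coupled to the stimulatory G protein was higher in DBTRG-05MG and 3 were lower. The prostaglandin E2 receptor PTGER2 averaged 0.095 FPKM in DBTRG-05MG, against 8.11 FPKM in U87 (-3.04 ± 0.14, adjusted p = 2.65e-07), and the adenosine receptor ADORA2B was also lower (-1.14). Among other alpha subunits, GNAL, a close relative of GNAS, was higher (1.68), and the inhibitory subunits GNAI3 (-1.67) and GNAI2 (-1.42) were lower. Of the other cyclases, ADCY8, which calcium stimulates, was the one that was tested. It had no fragment in 5 DBTRG-05MG libraries, which allows up to 0.0157 FPKM, and stood at 12.4, 2.54, 6.41, 4.00 and 9.51 FPKM in U87.

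Around RAP1, 3 of 7 other exchange factors were higher in DBTRG-05MG and 1, DOCK4 (-1.06), was lower. Among GTPase-activating proteins SIPA1L1 was lower (-1.28) and SIPA1L2 higher (0.59), the second not past the threshold with medians set equal (0.32, adjusted p = 0.0731). Of 9 tested effectors, 3 were higher and 2 lower. The integrin regulator APBB1IP (RIAM) had no fragment in DBTRG-05MG, which allows up to 0.0244 FPKM, and averaged 5.94 FPKM in U87 (adjusted p = 1.06e-06). RADIL, a RAP1 effector in cell adhesion, averaged 2.96 FPKM in DBTRG-05MG, against 0.0054 FPKM in U87 (adjusted p = 2.23e-06).

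Of the 73 tested pathway genes, none passed in the comparisons over time other than RGS16, so pathway genes are given as values, in falling order of the smaller of their 2 changes. GNG11, a G protein gamma subunit, stood at 48.2, 131, 208, 170 and 136 FPKM in DBTRG-05MG and at 157, 392, 305, 162 and 254 FPKM in U87, above 0 h at all later times in both lines. HCN2, a channel gated by cyclic nucleotides, stood at 15.2, 17.9, 19.3, 20.8 and 30.2 FPKM in DBTRG-05MG and at 24.0, 34.1, 41.9, 52.8 and 64.0 FPKM in U87, and each step was upward in both lines. GNB3, a G protein beta subunit, stood at 4.10, 2.63, 3.11, 3.59 and 1.21 FPKM in DBTRG-05MG and at 4.11, 3.36, 3.99, 3.39 and 1.88 FPKM in U87, below 0 h at all later times in both lines. RGS19 at 6 h stood at 8.63 FPKM in DBTRG-05MG, against 17.7 FPKM at 0 h, and at 6.39 FPKM in U87, against 12.0 FPKM at 0 h. GNAZ, an alpha subunit of the inhibitory class, was lower at 12 h than at 0 h in both lines, with 1.39 against 3.20 FPKM in DBTRG-05MG and 1.98 against 4.12 FPKM in U87. ARRB2 was also lower in both at 12 h and the inhibitory subunit GNAI1 higher. Among the other RAP exchange factors, the first by this measure was RASGRP3, whose changes ran in opposite directions. RASGRP3, an exchange factor for RAS and RAP1, stood at 6.84, 5.64, 5.74, 3.89 and 2.57 FPKM in DBTRG-05MG and at 0.336, 10.8, 4.47, 1.27 and 0.663 FPKM in U87. In U87 this was 592 fragments at 6 h, against 18 at 0 h, while in DBTRG-05MG every later library was below 0 h.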

How the data were processed

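Poly(A) RNA was sequenced in 10 libraries, 1 per line and time. The submitters' processing notes name HISAT, Bowtie2, RSEM and hg38, with no versions; whether reads were single or paired, and whether strand was used, is not given in the sources used here. The deposited table holds 1 FPKM value per gene and library. The unit is not in the labels and was read from the values: each of the 19739 genes with a value above 0 gave whole fragments for 1 integer gene length and 1 total per library, within 0.001 fragment or a relative 2e-07, and their sums made up 99.97 to 99.99% of the totals. A value of 0.002 was read as 0. Dose and times follow the sample labels; the description of the series differs from them in the unit of dose and in duration.

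From the FPKM values, log2(FPKM + 1) was fitted with limma 3.58.1 (R 4.3.3, empirical Bayes with a mean-variance trend) for 12352 genes that averaged 1 FPKM or more. Changes at 6 and 48 h modelled time as a factor within line blocks, trends used the rank of time within each line, and the level difference used time as a block. Adjusted p-values are Benjamini-Hochberg over all genes tested. The fits were tested on simulated data drawn with independent noise, so effects shared by the genes of a library were not part of that test. Ratios of libraries carry exact binomial intervals and levels exact Poisson intervals at 95%, for counting error only. limma-voom on recovered fragments and the scaled ratios were added after seeing the data. Named pathway genes were those past the threshold, up to 4 per list by smallest p, or else the 1 or 2 per list whose smaller change of the 2 lines was largest; of these only some are printed. The genes and lists were chosen with earlier results of these data known. Gene positions are from GENCODE on GRCh38 and promoters from RefSeq. There are no replicates of a line and time, so p-values measure disagreement between lines or around a trend.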

Additional observations from a re-analysis of the deposited data

Results flagged for a closer look

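The RAP1B level lay on opposite sides of 0 h in the lines: all 4 later DBTRG-05MG libraries were above 0 h and all 4 later U87 libraries were below it. RAP1B was flagged by this pattern, and the share of all genes with it was not counted. At 6 h the counting intervals included 1 in DBTRG-05MG (0.981 to 1.07) and in U87 (0.893 to 1.01). The difference of the trends, DBTRG-05MG minus U87, was 0.35 per time step on the log2 scale, with an adjusted p of 0.185 in limma, so the difference did not pass the threshold. It was 0.27 to 0.37 over 17 alternative analyses, with adjusted p-values from 0.080 to 0.415. Each line had 1 library per time, and the U87 median over all genes was -0.22 and -0.24 against 0 h at 24 and 48 h. With medians set equal the difference was 0.27 (adjusted p = 0.285).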

How the results depend on the processing

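The level differences of RGS2, RAP1B, ADCY6 and RAP1A kept their direction and passed in all 17 alternatives. The number of genes called over time was unstable. At 6 h against 0 h, 1 gene was called as analysed, against 4 with limma-voom, 3 with a pseudocount of 0.1, and 0 with medians set equal, with no filter or with no replicate block, and 0 to 2 when 1 library was left out. At 48 h leaving out 1 library gave 0 to 2. For the difference of trends, 2 genes were called, against 0 with limma-voom, 7 with medians set equal, 5 with no filter, 1 with a pseudocount of 0.1 and 14 with time in hours, and 1 to 67 when 1 library was left out (67 without U87 at 0 h, 12 without DBTRG-05MG at 0 h, 11 without U87 at 48 h, 5 without DBTRG-05MG at 6 h, and 1 without DBTRG-05MG at 48 h, U87 at 24 h or U87 at 6 h). For the trend in DBTRG-05MG, 138 genes were called, against 71 with limma-voom, 239 with no filter, 11 with a pseudocount of 0.1 and 372 with time in hours, and 2 to 339 when 1 library was left out (2, 20 and 35 without DBTRG-05MG at 48, 24 and 6 h, 39 without U87 at 12 h, 86 without U87 at 6 h, 258 and 339 without U87 at 48 and 24 h). For the trend in U87, 0 were called, against 2 with medians set equal and 1 with no filter, and 0 to 450 when 1 library was left out (450 without U87 at 0 h). The cause was not tested. None of the 10 genes was called in any of these. The trend of ADCY7 in U87 ran from -0.33 to 0.0268 when 1 library was left out, and turned without the U87 library at 0 h. With medians set equal, GNAS at 24 h turned to 0.993 times its 0 h level in DBTRG-05MG and to 1.07 times in U87. Without the line as a block (no replicate block), 96 genes had an unadjusted p under 0.05 at 6 h, against 656 with it, and 375 at 48 h, against 1512 with it. Depth limits RAPGEF4 in U87, at 1 to 4 fragments, and RAPGEF3, at 40 to 131.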
